A study of Mus musculus with 4 samples.

Results

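The cytosolic ribosomal proteins are the protein components of the ribosomes that translate nuclear mRNAs. Their genes were taken from the probe sets to which the platform annotation gives a single symbol of the form Rpl, Rps or Rplp followed by a number, leaving out the Rps6k kinases, pseudogene names with -ps and names ending in l or like. Each gene was represented by its brightest probe set, by the mean over the 4 arrays. The rule gave 45 genes of 18193 genes measured in the same way. Of these, 20 encode small subunit proteins, 20 encode large subunit proteins and 2 encode proteins of the large subunit's stalk. The remaining 3 names fit the rule but are not standard subunits: Rpl22l1 and Rpl7l1 are paralogs of Rpl22 and Rpl7, and Rps19bp1 is a protein that binds Rps19.

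The samples were 2 preparations of IL-10+ and 2 of IL-10- CD4+CD25+ T-cells, a fraction rich in regulatory T-cells, from C57BL/6 mice aged 6 to 12 weeks that carried no engineered allele in the labels. All mice had received D665, a superagonistic antibody against CD28 (CD28SA), and lymph node cells were taken 3 days later. All cells were then cultured overnight with 200 U/ml of human IL-2 and antibodies to CD3 at 2 µg/ml and to CD28 at 5 µg/ml, and were sorted by their IL-10 secretion, so that IL-10- cells had seen the same stimuli. Nothing in the labels or methods says that the arrays of a group came from separate mice or sorts, and the p-values therefore reflect the spread of these 4 arrays alone, which may be technical.

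Ribosomal proteins are made in step with each other and with ribosomal RNA, and they are assembled onto that RNA in the nucleolus. Their mRNAs are among the most abundant of any cell, and most begin with a C followed by a run of pyrimidines, the 5' terminal oligopyrimidine (TOP) motif, through which mTOR and Larp1 set their translation. Activated T-cells enlarge their ribosome pool before they divide. The comparison asked whether the mRNAs of this machinery differed between IL-10 producing cells and cells cultured in the same way that did not produce it.

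The start regions of a few genes are given as examples of a long pyrimidine run of this kind across the annotated start. Of these genes, Rpl14, Rpl35, Rps18 and Rps6 were lower in IL-10+ cells, Rpl27a was higher, and Rpl7a and Rps10 did not pass the test. Each line is 30 bases on the gene's strand, 15 before the gene's start in the RefSeq table and 15 from it on (GRCm38.p6), and capitals mark the longest run of C and T that opens with C.
Rpl14, chr9:120571502-120571531, plus strand: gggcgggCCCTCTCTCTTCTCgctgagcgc
Rpl35, chr2:39005117-39005146, minus strand: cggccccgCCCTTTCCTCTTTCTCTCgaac
Rps18, chr17:33955651-33955680, minus strand: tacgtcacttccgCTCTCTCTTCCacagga
Rps6, chr4:86857353-86857382, minus strand: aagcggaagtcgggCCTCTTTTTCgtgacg
Rpl27a, chr7:109519180-109519209, plus strand: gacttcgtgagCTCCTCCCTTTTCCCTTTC
Rpl7a, chr2:26910792-26910821, plus strand: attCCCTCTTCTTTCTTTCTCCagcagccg
Rps10, chr17:27635230-27635259, minus strand: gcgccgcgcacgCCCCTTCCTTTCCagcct
Such runs stood across the start in genes that were lower, in Rpl27a, which was higher, and in genes that did not pass.

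In IL-10+ cells, 18 of the 45 genes were lower than in IL-10- cells, 2 were higher and 25 did not pass (limma, adjusted p under 0.05). Over all 18193 genes the same test called 22.9% lower and 8.37% higher. The median difference, IL-10+ minus IL-10-, was -0.17 on the log2 scale, against -0.01 over all genes, and 42 of the 45 single differences were below 0. Most were small. The differences ran from -0.98 for Rpl12 to 0.86 for Rpl27a, and the middle 50% of them lay between -0.27 and -0.11. The groups did not overlap in 36 genes with IL-10+ lower and in 2 with IL-10+ higher, where over all genes 37.8% were apart with IL-10+ lower and 26.6% with IL-10+ higher. Since the samples are bulk preparations, fewer cells with a transcript and less transcript per cell cannot be told apart.

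**Figure D1:**
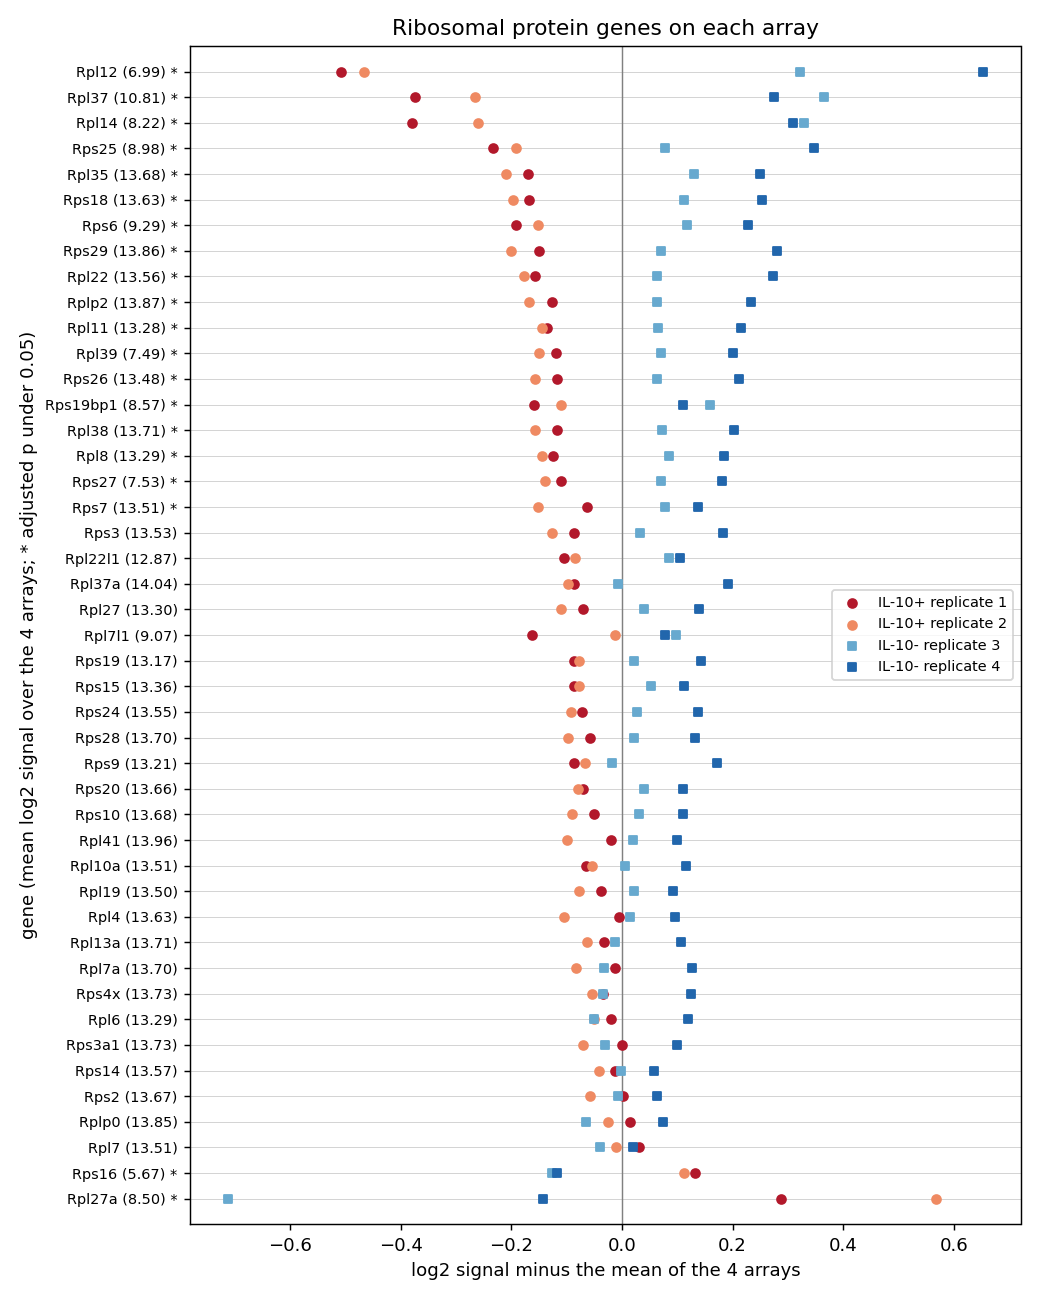
Log2 signal of each ribosomal protein gene on each of the 4 arrays, as the distance from that gene's mean over the arrays (x axis), with genes ordered by the difference between groups and their mean log2 signal in brackets. Circles are IL-10+ and squares IL-10- arrays, and an asterisk marks an adjusted p under 0.05. IL-10- replicate 4 was the highest of the 4 arrays in 38 of the 45 genes.

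The signal of these genes fell into a bright and a dim set. In 34 genes the mean log2 signal was at least 12, from 12.87 to 14.04, close to the highest value of the whole table, 14.42. Of these, 10 were lower, 0 were higher and 24 did not pass, with a median difference of -0.16. Among 269 other genes at least as bright as 12, 38.7% were lower and 12.6% were higher, with a median of -0.14. By the brightest probe set of each gene, a share of 29.4% lower among the bright ribosomal protein genes was thus no larger than that of other bright genes. Counting all 66 probe sets of the family with a mean of at least 12, 30 were lower (45.5%) and 0 were higher. Several of the 66 belong to the same gene, and the share over all probe sets of that brightness was not counted. The 45.5% therefore has no like share beside it.

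The other 11 genes had means from 5.67 to 10.81, and 8 of them were lower (72.7%), 2 were higher (18.2%) and 1 did not pass. The shares of all genes were 22.9% and 8.37%, and other genes with a mean under 12 were not counted apart. For 9 of these 11, a probe set with a mean of at least 12 exists but names further genes as well, so that it was used for no gene here. In all, 110 probe sets name a ribosomal protein together with other genes, and 48 of them were lower and 1 was higher, with a median difference of -0.21. Over all 45037 probe sets, 16.2% were lower and 13.6% were higher, but most of those were dim. Of the 110, 79 had a mean of at least 12, and 39 of these were lower (49.4%) and 0 were higher. For these too, the share over all probe sets of that brightness was not counted. The 110 hold 29 further names that fit the rule, among them Rplp1, Rpl5 and Rps23, which have no value of their own here.

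**Figure D2:**
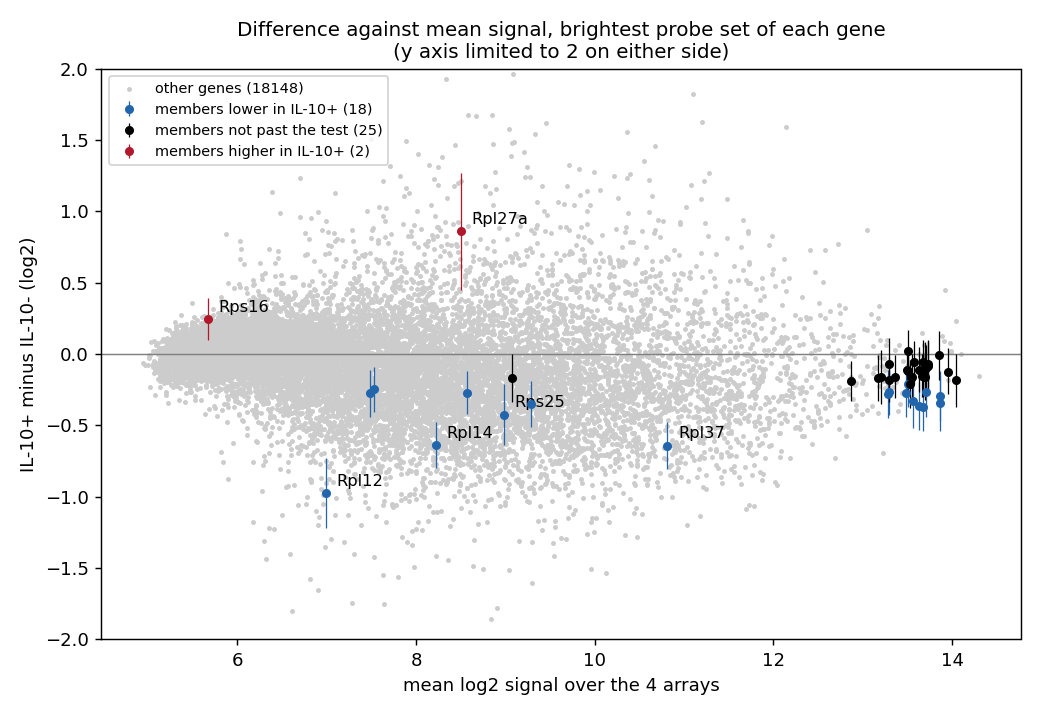
Difference between groups (y axis, log2, limited to 2 on either side) against the mean log2 signal over the 4 arrays (x axis) for 18193 genes by their brightest probe set. Coloured or black points are the 45 ribosomal protein genes with the 95% interval of their difference. The ribosomal protein genes past a difference of 0.5 on the log2 scale all lie among the dim probe sets.

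The arrays themselves differed in the brightness of this family. The median log2 signal of the 34 bright genes was 13.53 and 13.49 on the IL-10+ arrays (replicates 1 and 2), 13.63 on IL-10- replicate 3 and 13.73 on IL-10- replicate 4. Every one of the 34 was brighter on replicate 4 than on replicate 3, by a median of 0.12, which is about the size of the difference between replicate 3 and the mean of the IL-10+ arrays, 0.11. The 18 hybridization control probe sets, whose RNA is added in equal amount to every sample, had a mean log2 signal of 10.43 and 10.35 on the IL-10+ arrays, 10.40 on replicate 3 and 10.59 on replicate 4. The poly-A controls, bacterial RNAs added before labelling, had 4 probe sets at the 5' end with a mean of 8.14 and 8.31 in IL-10+ against 7.19 and 6.62 in IL-10-, and each of the 4 lay apart. Their 4 probe sets at the 3' end had 8.77 and 8.98 against 9.04 and 8.69, and the groups overlapped. The part of either kind of control in the differences was not tested. With the arrays centred on the hybridization controls (control centring), an alternative chosen after the data were seen, 3 genes were lower, 1 was higher and the median difference was -0.065. Of all genes, 9.81% were then lower and 7.5% higher, with a median of 0.092. With the arrays centred on all probe sets of a mean of at least 12 (bright centring), also chosen afterwards, 9 were lower, 2 higher and the median was -0.093. The shares of all genes were 16.3% lower and 12.2% higher, with a median of 0.063. Quantile normalization, which gives all arrays the same distribution of values, left 12 genes lower, 3 higher and a median of -0.023, and only 26 of the 45 differences were then below 0. Its shares of all genes were 21.9% lower and 9.11% higher, with a median of -0.039.

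Markers of B and plasma cells also differed between the groups. The summed signal of 11 B and plasma cell markers lay between 10.79 and 10.82 on the log2 scale on the IL-10+ arrays and between 13.53 and 13.61 on the IL-10- arrays, and 10 of the 11 were lower in IL-10+, while Pax5, which defines B cells, was at 6.16 over the arrays and did not pass. Of the other lists, 1 of 2 CD8 T-cell, 1 of 2 NK cell and 0 of 6 myeloid markers were lower, and 1 of the myeloid markers was higher. CD4 T-cell and regulatory T-cell markers were bright on all arrays: their summed signal was 15.44 to 15.47 in IL-10+ and 15.23 to 15.29 in IL-10-, with 4 of 9 higher and 2 of 9 lower. The part of other cells in the ribosomal protein values was not tested.

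The genes with the largest falls were those of the large subunit. Rpl12 encodes a protein at the base of the stalk that recruits elongation factors. Its log2 signal was 6.48 and 6.52 in IL-10+ and 7.31 and 7.64 in IL-10-. The groups lay apart, and the difference was -0.98 (SE 0.10, 95% interval -1.22 to -0.73, adjusted p = 0.000385, limma), or 1.97-fold lower in IL-10+. Rpl37, a small zinc finger protein of the large subunit, had 10.44 and 10.55 against 11.18 and 11.09, a difference of -0.64 (SE 0.07, adjusted p = 0.000477). Rpl14, another protein of the large subunit, had 7.84 and 7.96 against 8.55 and 8.53, likewise a difference of -0.64 (SE 0.07, adjusted p = 0.000403). These 3 genes stayed lower in each of 12 settings, namely the deposited values, 4 other scalings, 2 other priors, the brightest probe sets alone and each array left out, and they were the only members to do so. Each is represented by a single probe set. That of Rpl12 had a mean of 6.99, where the median of all probe sets was 6.37. That of Rpl37 has the suffix x, so that Rpl37 has no value without probe sets of the suffixes x, s or a.

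Rps25, a small subunit protein needed for initiation on some viral RNAs, had 8.75 and 8.79 in IL-10+ against 9.06 and 9.33 in IL-10- (difference -0.43, SE 0.09, adjusted p = 0.0105). Rps18, a protein of the small subunit's head, had 13.46 and 13.43 against 13.74 and 13.88, and its difference was -0.37 (SE 0.07, adjusted p = 0.00675). In both genes each IL-10- array lay above each IL-10+ array, with replicate 4 the highest. Rps6, the small subunit protein that S6 kinases phosphorylate downstream of mTOR, had 9.10 and 9.14 against 9.41 and 9.52 (difference -0.35, SE 0.07, adjusted p = 0.00648). Rps25 and Rps18 passed in 11 of the 12 settings. Rps6 lost its call without IL-10+ replicate 1, with the arrays centred on the hybridization controls, and as the mean over its probe sets (-0.16, adjusted p = 0.0739). A second, dim Rps6 probe set showed 0.03 (adjusted p = 0.808). Without probe sets of the suffixes x, s or a, which is not among the 12 settings, Rps18 differed by -0.012 (adjusted p = 0.925, limma).

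The exit tunnel is the channel through which the new peptide leaves the ribosome. Of its list, 3 of 7 genes were measured and 2 were lower, where 22.9% of all genes were lower. Rpl35 stands beside the tunnel's opening, where targeting factors bind. Its values were 13.51 and 13.47 in IL-10+ and 13.81 and 13.93 in IL-10- (difference -0.38, SE 0.07, adjusted p = 0.00542). Rpl39, which lines the tunnel wall, had 7.37 and 7.34 against 7.56 and 7.69, with a difference of -0.27 (SE 0.07, adjusted p = 0.0216). Both genes had groups that did not overlap. Rpl35 passed in 11 of the 12 settings and Rpl39 in 7. Rpl19, the third gene, differed by -0.12 and did not pass.

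The stalk is a flexible arm of the large subunit to which elongation factors dock. Its acidic protein Rplp2 had 13.74 and 13.70 in IL-10+ against 13.93 and 14.10 in IL-10-, a difference of -0.30 (SE 0.08, adjusted p = 0.0208) that passed in 8 of the 12 settings. Rplp0, which anchors the acidic proteins, had 13.87 and 13.83 against 13.79 and 13.93, so that the arrays overlapped. Its difference was -0.01 (95% interval -0.18 to 0.16, adjusted p = 0.949), and its sign turned under quantile normalization. The difference between these 2 stalk genes was not tested. Rpl11, which carries 5S RNA into the ribosome with Rpl5 and binds Mdm2 when assembly fails, had 13.14 and 13.13 against 13.34 and 13.49, with a difference of -0.28 (SE 0.07, adjusted p = 0.0216). It passed in 6 of the 12 settings: quantile normalization gave -0.12 (adjusted p = 0.193), and the call was lost without either IL-10+ array or without IL-10- replicate 4.

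None of the 3 measured genes of the mRNA channel and decoding list, of 5 listed, passed by the brightest probe set. Rps3 lines the entry of the mRNA channel and also acts in DNA repair. Its values were 13.44 and 13.40 against 13.56 and 13.71 (difference -0.21, adjusted p = 0.0713). Rps2, its neighbour at the entry, had 13.67 and 13.61 against 13.66 and 13.73, and its groups overlapped (difference -0.05, 95% interval -0.21 to 0.10, adjusted p = 0.61). Rps15, at the decoding centre, differed by -0.16 (adjusted p = 0.104). A second Rps15 probe set of nearly the same mean, 13.26 against 13.36, was lower by -0.33 (adjusted p = 0.0103, limma).

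Mutation of certain ribosomal protein genes causes Diamond-Blackfan anaemia, and 6 of the 9 listed were measured. Of these, 3 were lower and 0 were higher, against 22.9% and 8.37% of all genes. All 6 were bright, with means from 13.17 to 13.68, and of the 269 other bright genes 38.7% were lower and 12.6% higher. None of the 6 was called lower with quantile normalization, bright centring or control centring, or without either IL-10+ array or IL-10- replicate 4, and all 6 were with median centring. The 3 lower genes were Rpl11, Rps26, which touches the mRNA upstream of the start codon, and Rps7. Rps26 had 13.36 and 13.32 in IL-10+ against 13.54 and 13.69 in IL-10- (difference -0.27, SE 0.07, adjusted p = 0.025). Rps7 had 13.45 and 13.36 against 13.59 and 13.65 (difference -0.21, SE 0.07, adjusted p = 0.0488), close to the threshold. Both passed in 6 of the 12 settings, and under quantile normalization Rps26 differed by -0.058 and Rps7 by -0.023. The other 3, which take part in the maturation of the small subunit, were Rps19 (-0.17, adjusted p = 0.116), Rps24 (-0.16, adjusted p = 0.125) and Rps10 (-0.14, adjusted p = 0.159), and none of their group values overlapped either. Among all genes, 37.8% were apart with IL-10+ lower.

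Rpl22 is dispensable in most cells but needed for the development of alpha beta T-cells, and its paralog Rpl22l1 can take its place. The Rpl22 signal was 13.40 and 13.38 in IL-10+ against 13.62 and 13.83 in IL-10- (difference -0.33, SE 0.08, adjusted p = 0.0189), and passed in 8 of the 12 settings. All 3 probe sets of Rpl22 were lower, by -0.33, -0.34 and -0.63, and the last was the dimmest, with a mean of 7.51. Rpl22l1 had 12.77 and 12.79 against 12.96 and 12.98, a difference of -0.19 that missed the threshold (95% interval -0.33 to -0.05, adjusted p = 0.055). Neither paralog was higher in IL-10+.

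Rpl7 stood at the other end of the bright genes. Its arrays read 13.54 and 13.50 in IL-10+ and 13.47 and 13.53 in IL-10-, and the difference was 0.02 (95% interval -0.13 to 0.17, adjusted p = 0.873). Its 3 probe sets differed by -0.01 to 0.02. Under quantile normalization Rpl7 passed as higher in IL-10+. The brightest probe set of its paralog Rpl7l1 had 8.91 and 9.06 against 9.17 and 9.15 (difference -0.17, adjusted p = 0.124), but a second one of nearly the same mean had 9.25 and 9.38 against 8.71 and 8.62, a difference of 0.65 (SE 0.07, adjusted p = 0.00055). The direction of Rpl7l1 thus depends on the probe set.

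The only genes higher in IL-10+ were Rpl27a and Rps16, both by dim probe sets. Rpl27a encodes a large subunit protein near the peptidyl transferase centre. Its values were 8.79 and 9.07 in IL-10+ against 7.79 and 8.36 in IL-10-, which left the groups apart but with the widest spread of any gene of the family. The difference was 0.86 (SE 0.17, 95% interval 0.45 to 1.27, adjusted p = 0.00794), 1.81-fold higher, and it passed in each of the 12 settings. A second Rpl27a probe set with a mean of 5.67 differed by 0.04 (adjusted p = 0.756). Rps16, whose protein reaches the decoding site of the small subunit, had 5.80 and 5.78 against 5.54 and 5.55. Its difference of 0.25 (SE 0.06, adjusted p = 0.0203) was measured at a level under the median of all probe sets, 6.37, and passed in 8 of the 12 settings.

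Several probe sets of a gene allowed a second reading. The 45 genes had 98 probe sets, and 22 genes had more than 1. Of the 53 probe sets that were not the brightest, 24 were lower and 4 higher, against the 16.2% and 13.6% of all probe sets. Those were mostly dim, with a median level of 6.37, so that the shares are not of like brightness. The bright ones among the 53, 32 with a mean of at least 12, had 20 lower (62.5%) and 0 higher and a median difference of -0.24. The 269 other genes with a brightest probe set of that level had 38.7% lower and 12.6% higher. These units are unlike: the 32 hold several probe sets of the same gene, and the 269 hold 1 per gene. The share over all probe sets of that brightness was not counted. The 21 dim ones of the 53 had 4 lower and 4 higher and a median of -0.01. The dim ones, with 19.0% called in each direction, were close to the share over all probe sets. This split held among the further probe sets only: among the brightest probe sets of the genes, the dim ones held the 3 largest falls.

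Rpl35 shows this within 1 gene: 5 bright probe sets were lower, by -0.38 to -0.43, while the sixth, at a mean of 5.64, differed by 0.10 and did not pass. Rps18 had 3 bright probe sets lower and 3 dim ones that did not pass. In Rps10 the brightest probe set missed the threshold and 3 others passed as lower, down to -0.39. Rps3 and Rpl41 had probe sets called in opposite directions, as did 12.0% of the 9010 genes with several probe sets. A dim Rps3 probe set, with a mean of 8.26, was lower by -0.47 (adjusted p = 0.00124), and another, with a mean of 6.06, was higher by 0.25 (adjusted p = 0.0332). Rpl41, the shortest ribosomal protein, had 13.94 and 13.86 against 13.98 and 14.06 on its brightest probe set (difference -0.12, adjusted p = 0.235), a second bright one lower by -0.23 (adjusted p = 0.035), and 2 dim ones higher by 0.24 and 0.36.

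**Figure D3:**
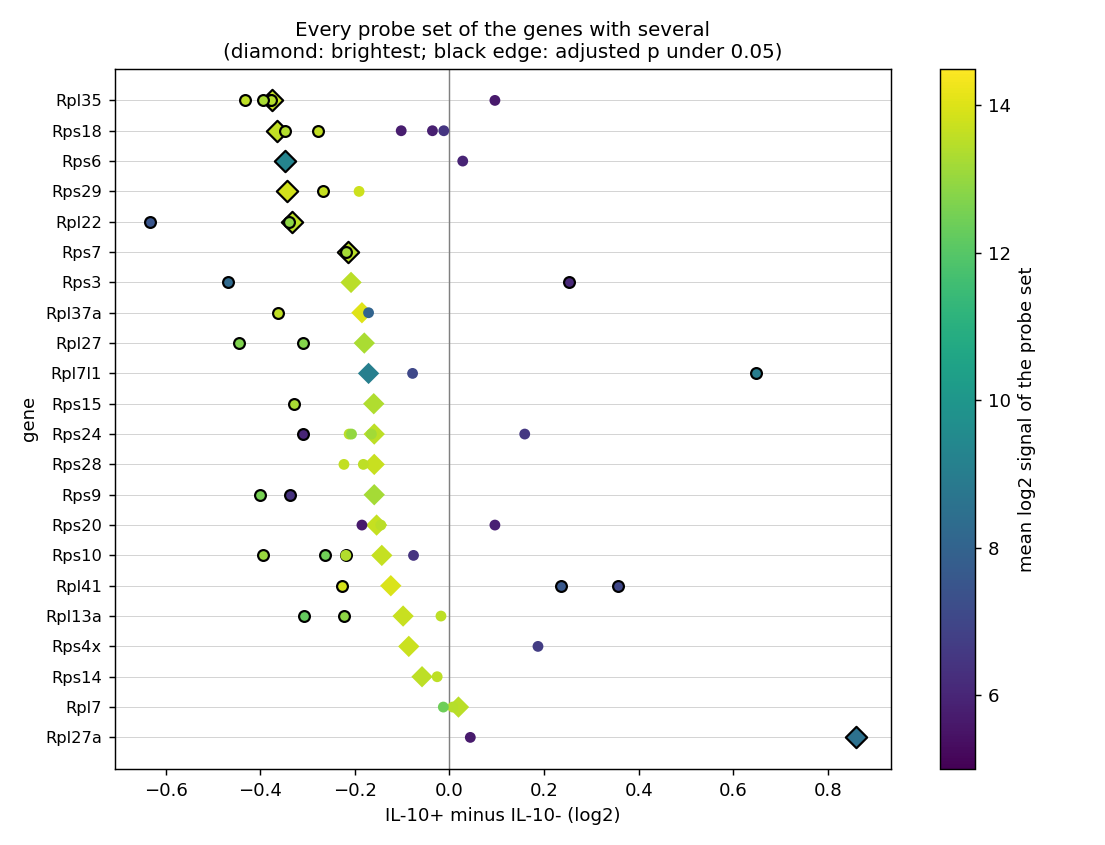
Difference between groups (x axis, log2) for every probe set of the 22 ribosomal protein genes with more than 1 (y axis), coloured by the mean log2 signal of the probe set. Diamonds are the brightest probe set of the gene, and a black edge marks an adjusted p under 0.05. Bright probe sets lie at or left of 0.02, and the called differences to the right come from dim probe sets.

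The members not yet described were called as follows by their brightest probe sets. Rps29 (-0.34), Rpl38 (-0.27), Rpl8 (-0.27), Rps27 (-0.25) and the binding protein Rps19bp1 (-0.27) were lower, the last with adjusted p = 0.015. The other 13 did not pass and ran from -0.19 for Rpl37a to -0.06 for Rps14. Some of them had further bright probe sets that were lower. These were found in Rpl27 (-0.45 and -0.31), Rps9 (-0.40), Rpl37a (-0.36) and Rpl13a (-0.31 and -0.22), and each of these genes had 0 probe sets higher. By subunit, 7 of 20 small subunit genes were lower and 1 higher (median -0.16), and 9 of 20 large subunit genes were lower and 1 higher (median -0.18). Among all genes, 22.9% were lower and 8.37% higher. Under quantile normalization the medians became 0.00 for the small and -0.08 for the large subunit.

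Factors that build the ribosome were described beside its own proteins. Of 18 genes of ribosome biogenesis, 14 were lower and 0 were higher, with a median difference of -0.40, while Ncl, Nop58, Rrn3 and Ubtf did not pass. The shares of all genes were 22.9% lower and 8.37% higher. Nop56, a core protein of the particles that methylate ribosomal RNA, had 8.87 and 8.86 in IL-10+ against 10.10 and 10.28 in IL-10-, a difference of -1.32 (SE 0.08, adjusted p = 3.12e-05). Its partner Fbl, the methyltransferase, differed by -0.66 (adjusted p = 0.000462), and Rrp12, which helps to export the small subunit, by -0.83 (adjusted p = 0.000133). Between 8 (control centring) and 16 (median centring) of the 18 were lower and 0 were higher under each scaling, with medians from -0.48 to -0.29. Mitochondrial ribosomal proteins, which are nuclear genes of another ribosome, had 51 of 76 lower and 0 higher (median -0.36), and Mrpl41 fell most, from 10.53 and 10.55 to 9.61 and 9.66 (difference -0.91). Their median lay between -0.43 and -0.25 under each scaling, but 22 were lower with control centring, and 1 was higher with bright centring. All 3 lists share the arrays and the fit, and whether they differ from each other was not tested.

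**Figure D4:**
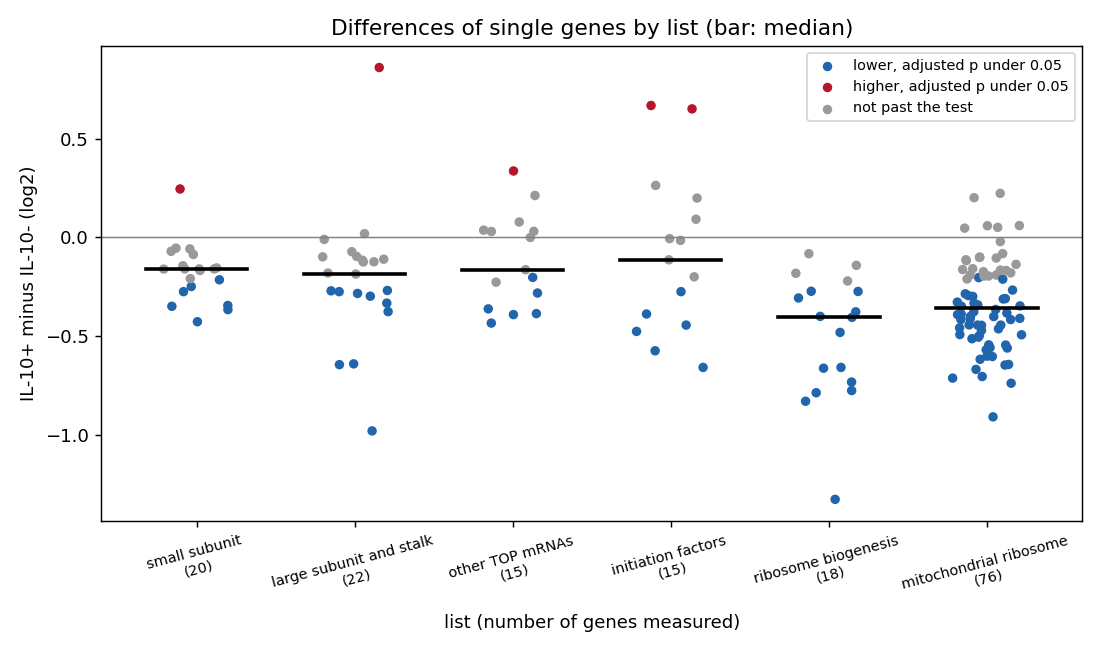
Difference between groups (y axis, log2) of each gene by its brightest probe set in 6 lists (x axis, with the number measured), and the median of each list as a bar. Blue and red points are lower and higher in IL-10+ at an adjusted p under 0.05. Ribosome biogenesis had a median of -0.40 and the mitochondrial ribosome of -0.36.

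Other TOP mRNAs were mixed. Of the 15 measured, with a median of -0.16, 6 were lower and 1 was higher, against 22.9% and 8.37% of all genes. With control centring 0 were lower and 1 was higher, and with quantile normalization 4 were lower and 2 higher, with a median of -0.01. Eef2, the elongation factor that moves the ribosome along, had 12.76 and 12.69 in IL-10+ against 13.05 and 13.18 in IL-10- (difference -0.39, adjusted p = 0.005). Pabpc1, the poly(A) binding protein, went the other way, with 13.39 and 13.32 against 12.97 and 13.06 (difference 0.34, adjusted p = 0.00819). Initiation factors had 6 of 15 lower and 2 higher, but 5 lower and 5 higher with quantile normalization and 3 of each with control centring. Eif4e, which binds the mRNA cap, was among the higher ones, with 11.10 and 11.20 against 10.44 and 10.53 (difference 0.67, adjusted p = 0.000377). Among 7 genes of TOP mRNA control, 4 were lower, namely Mtor (-0.60), Larp1 (-0.31), Eif4ebp1 (-0.45) and Eif4ebp2 (-0.75). Rheb, which activates mTOR, was higher by 0.46, and Myc, a driver of ribosome synthesis, differed by -0.05 (adjusted p = 0.711).

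**Figure D5:**
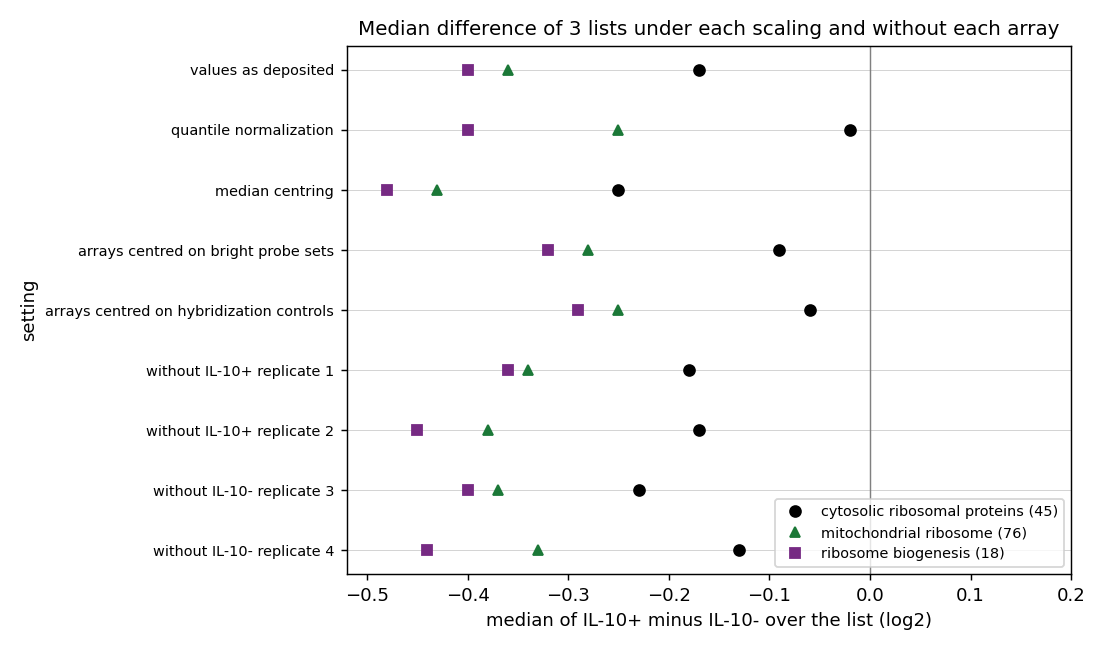
Median difference between groups (x axis, log2) of the 45 cytosolic ribosomal protein genes, 76 mitochondrial ribosomal protein genes and 18 biogenesis genes under 5 ways of scaling the arrays and without each array in turn (y axis). The cytosolic median ran from -0.25 with median centring to -0.02 with quantile normalization, and every median shown was below 0.

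Start regions were listed for 40 of the 45 genes, in 46 windows. A run of C followed by at least 7 C or T, on the gene's strand within 25 bases of the start, was found in 45.7% of these windows and in 15.5% of all 32851 windows of the RefSeq table. Of the 21 genes with such a run 11 were lower (median -0.25), and of the 19 without it 5 were lower (median -0.17). The shorter CTTTCC, which can lie within such a run, was found near the start in 6 of the 46 windows and in 2.46% of all. The motif CCGGAAG, read by ETS factors, stood on either strand of the whole window in 39.1% against 8.86%, and 11 of its 18 genes were lower (median -0.27), as were 5 of the 22 without it (median -0.16). AAGATGG, part of a YY1 motif, stood on either strand in 17.4% against 6.34%, with 4 of its 8 genes lower. Over all genes 22.9% were lower, and the share lower among all genes with each motif was not counted. These matches describe letters in the window and were not tested against the differences.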

How the data were processed

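The authors extracted RNA by TRIZOL from the sorted cells, hybridised 1 Affymetrix mouse genome array per sample and normalized the signals by variance stabilization in R. The labels and the methods differ on the labelling kit. The deposited table gives each probe set 1 value on every array, on a scale taken as log2: the base is not stated, but the maximum of 14.42 exceeds 11.09, the natural log of a 16-bit scanner's range. Probe summarization and software versions are not given in the sources used here.

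The groups were compared with limma 3.58.1, run in R 4.3.3 (moderated two-sided test from lmFit and eBayes, Benjamini-Hochberg over all 45037 probe sets, 64 controls left out), with 2 residual degrees of freedom and 5.44 from the prior. The step was tested on simulated data. Nothing was filtered and no pseudocount was used. Only 4 arrays limit the precision: an exact permutation test of 2 against 2 cannot go below p = 0.333. Symbols came from the platform annotation, in which 34945 probe sets tested name 1 gene. All 45 members matched RefSeq (GRCm38.p6) with 0 symbols changed, and start regions came from its promoter table. Probe sets were split into bright and dim by their mean, but no level was read as an amount of mRNA relative to another gene. The text names up to 6 called members per direction by size (6 lower and, as there were no more, 2 higher), the stalk, tunnel, channel, 5S and anaemia genes, Rps6, the paralogs with their partners and genes whose probe sets oppose. Members, lists and tests were chosen with earlier results of these data known. Alternatives were other scalings, priors, probe set choices, log base and leaving out each array. Bright centring shifts each array by its probe sets of a mean of at least 12, and control centring by its hybridization controls. The 12 settings named in the report are the deposited values, 4 scalings, a trend and a robust prior, the brightest probe sets alone and each of the 4 arrays left out. Figures used Python 3.11.15 and matplotlib 3.10.9.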

Additional observations from a re-analysis of the deposited data

Results flagged for a closer look

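Probe sets for 18S ribosomal RNA, the RNA that the small subunit proteins bind, are controls of the array and were outside the comparison of genes. The probe set at the 3' end had a log2 signal of 7.97 and 8.15 in IL-10+ and of 10.10 and 10.38 in IL-10-, a difference of -2.18 (IL-10+ minus IL-10-), with the groups apart. The middle probe set had a mean of 7.99 ± 0.24 in IL-10+ and of 8.91 ± 0.13 in IL-10- (SD, n = 2, difference -0.91), and the one at the 5' end went the other way, with 8.03 and 8.49 against 7.77 and 7.82 (0.47). The poly-A controls, bacterial RNAs added before labelling, were also outside it. Their 4 probe sets at the 5' end had a mean log2 signal of 8.14 and 8.31 in IL-10+ and of 7.19 and 6.62 in IL-10-, a difference of 1.32, while those at the 3' end differed by 0.01. Both sets are signals in data that the comparison of genes does not use. No test was run on them, and their part in the values of the ribosomal protein genes was not tested.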

How the results depend on the processing

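The call counts depend on the scaling and on each array. Lower genes numbered 29 with median centring, 9 with the arrays centred on bright probe sets and 3 with them centred on the hybridization controls, against 18. Median centring called 29.8% of all genes lower and 5.59% higher. Higher genes numbered 1 with median centring, without dim probe sets and with the control centring, against 2. Without 1 array, 6 (without IL-10+ replicate 1) to 25 (without IL-10- replicate 3) genes were lower and 1 to 2 higher, and the median ran from -0.226 to -0.128. The median was -0.023 with quantile normalization, -0.247 with median centring and also on the natural log base, -0.093 with the bright centring and -0.065 with the control centring. The 34 members with a mean of at least 12 had 10 lower and 0 higher, and without probe sets of the suffixes x, s or a 10 of 23 members were lower. The cause was not tested. Bright centring, control centring and the restriction to bright members were chosen after seeing the data. All medians were below 0. Of the counts and medians under alternatives, 30 moved by at most 1.5 times (counts) or by less than 1 SD (medians). The counts on the natural log base are among the 30 and could not move. The counts without either IL-10+ array and the median without IL-10- replicate 3 moved by more than this.

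Of 365 values of single genes under alternatives, 288 kept direction and call, 42 lost the call, 17 gained it and 18 changed sign. Part of this tally was fixed in advance. The natural log base multiplies every value by a constant, so that its 25 values had to keep direction and call. The other priors, the brightest probe sets alone and leaving out dim probe sets keep each difference and could change only the call. Sign changes concerned Rplp0 (0.104 with quantile normalization, 0.069 with bright and 0.097 with control centring, -0.08 to 0.061 without 1 array), Rps2 (0.106, 0.024 and 0.052 under the same 3 scalings), Rps10 (0.016) and Rps24 (0.022) with quantile normalization, Rpl7 (-0.057 with median centring, -0.013 to 0.051 without 1 array), Rpl41 (0.06) and Rpl7l1 (0.133) as the mean over probe sets, and Rpl35 (0.096), Rpl41 (0.356) and Rps24 (0.159) without x, s or a probe sets. No paired analysis was possible because the labels give the groups different replicate numbers.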
